A study of Homo sapiens with 4 samples.

Results

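UGT2B7, UGT2B10, UGT2B11, UGT2B15, UGT2B17 and UGT2B28 are 6 members of the UDP-glucuronosyltransferase 2B family, taken by symbol from the 33538 genes in the single-cell RNA sequencing (scRNA-seq) matrices, where all 6 were found. Their RNA was followed in LNCaP, an androgen-sensitive line from a human prostate cancer metastasis, and in its derivatives. The 4 groups were parental cells given 0.1% of the solvent DMSO for 48 h (LNCaP), parental cells given 10 µM of the antiandrogen enzalutamide (ENZ) for 48 h (LNCaP-ENZ48), and 2 ENZ-resistant derivatives, RES-A and RES-B, cultured with 10 µM ENZ added at every passage. RES-A had been selected in rising ENZ concentrations and RES-B in the related antiandrogen RD-162, so each resistant line stands for 1 derivation. Each group was 1 library of sorted living cells, which leaves no replicate check of any difference, and all intervals given are 95% intervals that cover counting error only.

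UGT2B enzymes sit in the membrane of the endoplasmic reticulum and attach glucuronic acid, taken from UDP-glucuronic acid, to small lipophilic molecules, which are then exported. UGT2B15 and UGT2B17 are best known in the prostate, where they conjugate dihydrotestosterone and its metabolites and so end their action. Androgen lowers both RNAs in LNCaP cells, and antiandrogens relieve this. UGT2B28 also accepts steroids, UGT2B7 acts on many drugs and steroids, UGT2B10 is known for conjugating amines such as nicotine, and the substrates of UGT2B11 are less well defined.

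The 6 genes lie in a single cluster on chromosome 4. In GENCODE 44 on GRCh38 they run from UGT2B17 (68537173 to 68576413, minus strand) and UGT2B15 (68646597 to 68670652, minus) through UGT2B10 (68815994 to 68832023, plus) and UGT2B7 (69051363 to 69112987, plus) to UGT2B11 (69199951 to 69214748, minus) and UGT2B28 (69280475 to 69295050, plus). They are close copies of each other. Coding sequences were 97.0% identical between UGT2B11 and UGT2B28, 96.5% between UGT2B15 and UGT2B17 and 95.02% between UGT2B10 and UGT2B11, and the least similar pair, UGT2B15 and UGT2B28, still shared 84.4%. A read that matches more than 1 gene is not counted, so the 3' ends, from which these libraries are read, were searched for repeats. Of 910 windows of 91 bases (a chosen length, the read length being unknown) in the last 1000 bases of each transcript, those found unchanged elsewhere on chromosome 4 or in another UGT transcript made up 0.44% in UGT2B10, 0.99% in UGT2B7, 5.60% in UGT2B11, 7.58% in both UGT2B15 and UGT2B17, and 9.56% in UGT2B28. In the last 400 bases the share was 0% for every member except UGT2B28, where it was 4.84%. Windows found elsewhere with at most 1 changed base were more common. Over the last 1000 bases they made up 2.42% in UGT2B10, 20.5% in UGT2B17, 21.2% in UGT2B11 and 25.4% in UGT2B28. In the last 400 bases they reached 7.10%, in UGT2B28. Whether reads with a changed base were counted for the wrong copy was not tested. UGT2B28 thus had the largest share of repeated windows by both lengths.

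Start regions were available from RefSeq (GRCh38.p14) for UGT2B15, UGT2B10, UGT2B7 and UGT2B11, and are shown because UGT2B10 and UGT2B11 were each among the nearest genes of the other by level across the libraries, whereas UGT2B15 had another order of levels. Each line gives the 250 bases before the annotated start, 5′ to 3′ on the gene's strand. The RefSeq start of UGT2B7 lies downstream of the GENCODE one, so its window falls inside the GENCODE gene. Capitals mark the letters AGAACA (an arm of the androgen response element), AGGTCA (an arm of other nuclear receptor sites) and TGTTTAC (a FOXA core, here as its reverse complement GTAAACA), on either strand.
UGT2B15, chr4:68670653-68670902, minus strand: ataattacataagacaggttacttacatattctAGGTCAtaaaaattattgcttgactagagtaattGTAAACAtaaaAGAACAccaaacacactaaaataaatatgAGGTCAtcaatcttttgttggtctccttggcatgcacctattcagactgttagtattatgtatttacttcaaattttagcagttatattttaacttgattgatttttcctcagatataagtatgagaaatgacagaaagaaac
UGT2B10, chr4:68815744-68815993, plus strand: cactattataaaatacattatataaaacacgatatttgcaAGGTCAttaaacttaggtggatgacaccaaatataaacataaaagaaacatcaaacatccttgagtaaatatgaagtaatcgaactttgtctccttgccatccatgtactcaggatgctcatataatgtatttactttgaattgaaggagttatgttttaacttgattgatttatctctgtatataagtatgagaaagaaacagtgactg
UGT2B11, chr4:69214749-69214998, minus strand: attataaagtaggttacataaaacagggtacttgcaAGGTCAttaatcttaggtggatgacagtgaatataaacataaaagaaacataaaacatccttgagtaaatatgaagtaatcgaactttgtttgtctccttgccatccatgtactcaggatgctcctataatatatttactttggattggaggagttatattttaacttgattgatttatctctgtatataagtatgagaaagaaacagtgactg
UGT2B7, chr4:69096224-69096473, plus strand: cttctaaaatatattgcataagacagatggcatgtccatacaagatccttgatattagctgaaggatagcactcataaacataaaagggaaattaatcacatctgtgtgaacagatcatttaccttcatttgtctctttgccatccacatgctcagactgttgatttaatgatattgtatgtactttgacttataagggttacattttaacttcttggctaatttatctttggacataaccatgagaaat

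The windows of UGT2B10 and UGT2B11, taken from 250 bases before to 50 after the start, were 92.6% identical over 296 aligned bases, against 71.5% to 78.7% for the other 5 pairs. AGAACA was present on either strand in UGT2B15 alone among the 4 and in 14.8% of all 35116 promoter windows of this length. UGT2B15 was also the only 1 of the 4 with TGTTTAC, found in 3.42% of all windows, at 183 to 177 bases before its start and just upstream of its AGAACA at 172 to 167. AGGTCA occurred at 210 bases before the start of UGT2B10, at 214 in UGT2B11 and at 217 and 143 in UGT2B15, but not in UGT2B7, and it is in 13.8% of all windows. TATAAA was in UGT2B10 and UGT2B11, and in 11.5% of all. The full androgen response element, with both arms, was in none of the 4 and in 0.39% of all windows. No searched motif overlapped another in these windows. These are matches of letters in a short window and describe no binding.

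The kept libraries held 1782 to 4569 cells and 50208831 to 60838227 unique molecular identifiers (UMIs, each marking 1 captured RNA molecule). Levels are UMIs summed over the cells of a library and scaled to counts per 1000000 UMIs (CPM). LNCaP cells were the deepest, with a median of 27079.5 UMIs against 12138 to 13676 in the other libraries, and shares of cells are therefore given at a common depth, with 5000 UMIs drawn at random from each cell (thinned cells). Libraries shared 2 to 9 barcodes per pair. Of 6 luminal markers, HOXB13, FOXA1, KRT8, KRT18 and FOLH1 were at 91.96 CPM or more in every library, and KLK3 was at 30.5 CPM or more except in RES-A, at 0.035 CPM. Among 14 markers of basal, fibroblast, endothelial and immune cells, KRT5, TP63, PTPRC, CD3E, CDH5 and COL1A2 were at 0 UMIs in all 4 libraries. The highest of the others were COL1A1, at 1.45 to 3.19 CPM, VWF, at 0.12 to 1.02 CPM, and CD68, at 0.29 to 1.01 CPM.

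UGT2B15 had the clearest response to 48 h of ENZ among the 6 genes. It had 552 UMIs (10.99 CPM, interval 10.1 to 11.95) in solvent and 2065 (33.9 CPM, 32.5 to 35.4) after ENZ. RES-A had 7102 (124 CPM, 121 to 127) and RES-B 1368 (26.0 CPM, 24.7 to 27.4). LNCaP was thus lowest, RES-B and LNCaP-ENZ48 were intermediate with intervals that did not overlap, and RES-A was highest. The level was 3.09-fold (2.81 to 3.40) that of LNCaP after short ENZ, 11.3-fold (10.3 to 12.3) in RES-A and 2.37-fold (2.14 to 2.62) in RES-B.

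UGT2B17, the closest copy of UGT2B15 and its neighbor in the genome, did not follow it. It had 1081 UMIs (21.5 CPM, interval 20.3 to 22.9) in solvent, 1714 (28.2 CPM, 26.9 to 29.5) after short ENZ and 1435 (25.03 CPM, 23.7 to 26.4) in RES-A, but 283 (5.38 CPM, 4.77 to 6.05) in RES-B. The first 3 libraries lay close together and RES-B stood well below them. Against LNCaP the ratio was 1.31 (1.21 to 1.41) after short ENZ and 1.16 (1.07 to 1.26) in RES-A, and the RES-B level was 0.25 (0.22 to 0.29) of that of LNCaP. The 2 resistant lines therefore lay on opposite sides of parental LNCaP for this gene, against the same LNCaP library.

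The balance of the androgen-conjugating pair shifted accordingly. UMIs of UGT2B15 per UMI of UGT2B17 went from 0.51 (interval 0.46 to 0.57) in solvent to 1.20 (1.13 to 1.29) after short ENZ, and stood at 4.95 (4.68 to 5.24) in RES-A and 4.83 (4.25 to 5.51) in RES-B. The intervals of both resistant lines overlapped and lay above those of both parental libraries, although all 6 genes together came to 319 CPM in RES-A but 42.6 CPM in the other line. Each UMI stands for a molecule whatever its length, and the ratio takes no account of lost reads.

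UGT2B11 was a low gene in parental cells and one of the most abundant members in RES-A. Its counts were 180 UMIs (3.59 CPM, interval 3.08 to 4.15) in solvent and 229 (3.76 CPM, 3.29 to 4.28) after short ENZ, while RES-A had 7200 (126 CPM, 123 to 129) and RES-B 474 (9.02 CPM, 8.22 to 9.87). The parental libraries overlapped, RES-B was above both, and RES-A was far above all. The ratio against LNCaP was 35.0 (30.2 to 40.8) in RES-A and 2.51 (2.11 to 3.003) in RES-B, and after short ENZ it was 1.05, with an interval of 0.86 to 1.28 that leaves little room for a change of the size seen for UGT2B15.

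UGT2B10 showed the same order of libraries at lower counts. There were 17 UMIs (0.34 CPM, interval 0.20 to 0.54) in solvent, 23 (0.38 CPM, 0.24 to 0.57) after short ENZ, 86 (1.64 CPM, 1.31 to 2.02) in RES-B and 1687 (29.4 CPM, 28.0 to 30.9) in RES-A. Its ratio against LNCaP was the highest of the 6 genes in both resistant lines, at 86.9 (54.1 to 150) in RES-A and 4.83 (2.85 to 8.67) in RES-B. The parental libraries again overlapped, with a ratio of 1.12 (0.57 to 2.23).

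UGT2B28 and UGT2B7 were present above trace counts in RES-A only. UGT2B28 had 704 UMIs (12.3 CPM, interval 11.4 to 13.2) in RES-A, against 22 (0.44 CPM) in solvent, 12 (0.20 CPM) after short ENZ and 20 (0.38 CPM) in RES-B, so that RES-A was 28.0-fold (18.4 to 45.0) above LNCaP. UGT2B7 had 183 UMIs (3.19 CPM, 2.75 to 3.69) in RES-A, against 12 (0.24 CPM), 13 (0.21 CPM) and 9 (0.17 CPM) in the same other libraries, and its RES-A level was 13.4-fold (7.46 to 26.3) that of LNCaP. For RES-B against LNCaP both ratios had intervals that held 1, from 0.45 to 1.67 for UGT2B28 and from 0.27 to 1.85 for UGT2B7. After short ENZ, UGT2B28 was at 0.45 of its LNCaP level (0.20 to 0.95) on 12 UMIs, a difference that did not hold with other scaling: the log2 ratio was -1.06 (-2.20 to 0.02) with TMM, -1.05 (-2.20 to 0.03) with DESeq2 factors and -0.81 (-2.36 to 0.68) in G1 cells alone.

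**Figure D1:**
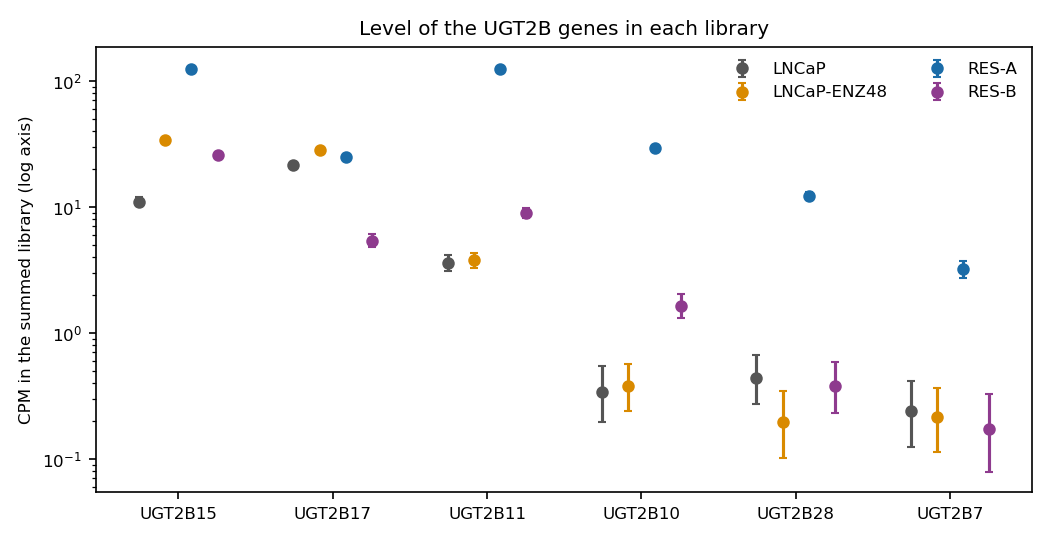
Level of each UGT2B gene in the 4 libraries, as CPM of the UMIs summed over kept cells on a log axis; points are single libraries and bars are exact Poisson 95% intervals. RES-A is highest for every gene except UGT2B17, which sits between 21.5 and 28.2 CPM in 3 libraries and at 5.38 CPM in RES-B.

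To set these ratios beside those of other genes, a ratio of at least 2-fold was counted among genes with at least 10 CPM in 1 of the compared libraries. After short ENZ, 2 members reached 10 CPM and 1 of them, UGT2B15, was at least 2-fold higher, against 0.212% of the 7554 genes counted, and none was 2-fold lower, against 0.728%. In RES-A against LNCaP 5 members reached 10 CPM and 4 were at least 2-fold higher (UGT2B10, UGT2B11, UGT2B15 and UGT2B28), against 4.8% of 7975 genes, and none was 2-fold lower, against 4.99%. In RES-B against LNCaP 2 members reached 10 CPM, of which UGT2B15 was at least 2-fold higher (5.76% of 8090 genes) and UGT2B17 2-fold lower (3.73%). UGT2B7 did not reach 10 CPM in any library. Members that passed only through their RES-A level had to be higher there, and UGT2B17, which passed through LNCaP alone, had to be lower in RES-B. The median log2 ratio of all genes was -0.08 after short ENZ, 0.02 in RES-A and 0.12 for RES-B, and under TMM or DESeq2 scaling the same numbers of members were past 2-fold in every comparison.

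Without the 10 CPM limit, the log2 ratios of the 6 members against LNCaP ran from -1.15 (UGT2B28) to 1.63 (UGT2B15) after short ENZ, from 0.22 (UGT2B17) to 6.44 (UGT2B10) in RES-A, and for RES-B from -2.00 (UGT2B17) to 2.27 (UGT2B10).

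**Figure D2:**
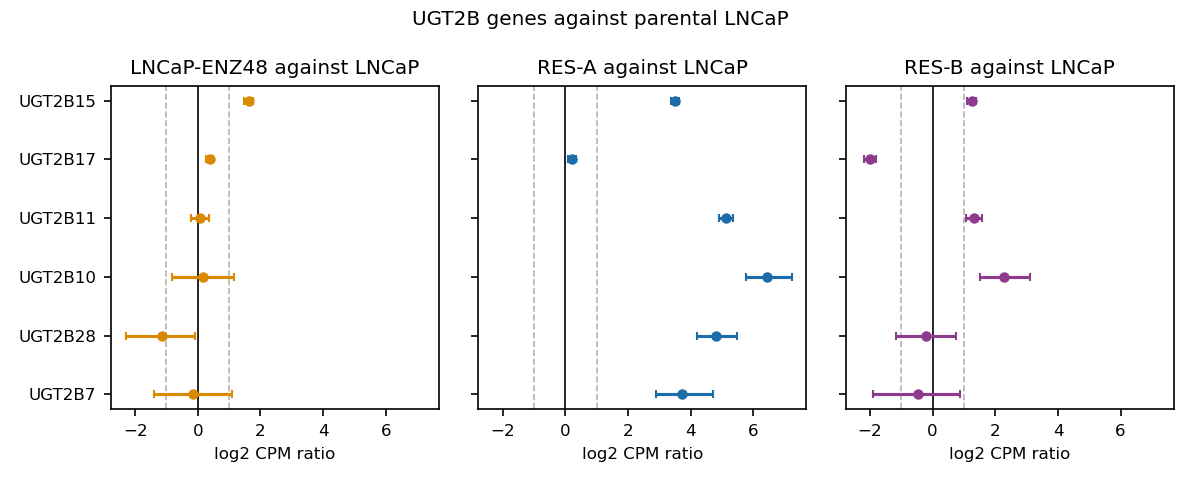
log2 CPM ratio of each UGT2B gene against parental LNCaP, 1 panel per library; bars are exact conditional binomial 95% intervals, the solid line marks no difference and dashed lines mark 2-fold. UGT2B15 lies above the upper dashed line in all 3 panels, and UGT2B17 lies at 0.39, 0.22 and -2.00.

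The 2 resistant lines were also compared with acutely treated cells and with each other, since all had ENZ in the medium. RES-A was above LNCaP-ENZ48 for 5 members, by 3.65-fold (interval 3.47 to 3.83) for UGT2B15 and by 14.9-fold to 77.8-fold for UGT2B7, UGT2B11, UGT2B28 and UGT2B10. UGT2B17 was slightly lower in RES-A, at 0.89 (0.83 to 0.95) of its LNCaP-ENZ48 level. Of the 5 members with 10 CPM, 4 were at least 2-fold higher, against 5.25% of 7829 genes, and none was 2-fold lower, against 4.0%. UGT2B10, UGT2B11 and UGT2B28 reached 10 CPM through RES-A alone, so their direction was fixed by this limit. RES-B was above LNCaP-ENZ48 for UGT2B11 (2.40-fold, 2.04 to 2.82) and UGT2B10 (4.33-fold, 2.71 to 7.19) and below it for UGT2B15 (0.77, 0.72 to 0.82) and UGT2B17 (5.23-fold lower, 4.61 to 5.96), while UGT2B7 and UGT2B28 had intervals that held 1. UGT2B17 was the 1 member of 2 with 10 CPM that was 2-fold lower there, against 2.97% of 7976 genes, and neither was 2-fold higher, against 6.68%. It reached the limit through LNCaP-ENZ48 alone, so its direction was fixed as well.

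Between the resistant lines, every member was lower in RES-B. The levels were 32.3-fold lower (interval 20.7 to 53.2) for UGT2B28, 18.6-fold (9.61 to 41.4) for UGT2B7, 18.0-fold (14.5 to 22.6) for UGT2B10, 13.9-fold (12.7 to 15.3) for UGT2B11, 4.76-fold (4.49 to 5.05) for UGT2B15 and 4.65-fold (4.09 to 5.30) for UGT2B17. All 5 members with 10 CPM were past 2-fold, lower in RES-B, against 2.3% of 7954 genes, and none was higher, against 3.95%. UGT2B10, UGT2B11, UGT2B28 and UGT2B17 passed this limit through RES-A alone and had to be lower in RES-B, and only UGT2B15 passed in both lines. The androgen-conjugating pair thus differed between the lines by less than the other 4 genes, whose intervals did not overlap those of the pair.

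Shares of cells with a member were compared at equal depth. After thinning, a UMI of UGT2B15 was found in 4.88% of solvent-treated cells (interval 3.93 to 5.99), 11.1% after short ENZ (10.2 to 12.1), 9.16% of RES-B (8.29 to 10.1) and 40.3% of RES-A cells (38.9 to 41.8). UGT2B17 was found in 7.52%, 9.48%, 2.39% and 10.6% of cells in the same order, and UGT2B11 in 1.63%, 1.46%, 3.13% and 40.9%. RES-A was the only library in which a large share of cells held UGT2B11, and the shares of UGT2B17 in LNCaP-ENZ48 and RES-A had overlapping intervals, although the level was lower in RES-A.

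The rarer members were seen in few cells outside RES-A. UGT2B10 was in 0 of 1782 thinned LNCaP cells, which allows up to 0.168% of cells with a UMI at this depth (15 cells, or 0.84%, had one without thinning), in 0.14% of cells after short ENZ, and in 12.2% of RES-A but 0.64% of RES-B cells. UGT2B28 was in 5.54% of RES-A cells and UGT2B7 in 1.53%, against at most 0.22% and 0.056% in the other libraries. At least 1 of the 6 genes was detected in 68.1% of RES-A cells (66.7 to 69.5), against 11.7% (10.2 to 13.3) in solvent, 18.1% (16.98 to 19.3) after short ENZ and 12.6% (11.6 to 13.6) in RES-B. Without thinning the same 4 shares were 86.0%, 32.0%, 32.2% and 21.6%, and the order of the solvent library changed with its greater depth. All cells come from 1 line, and no cell type that should lack these genes was present to set a level for free RNA.

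**Figure D3:**
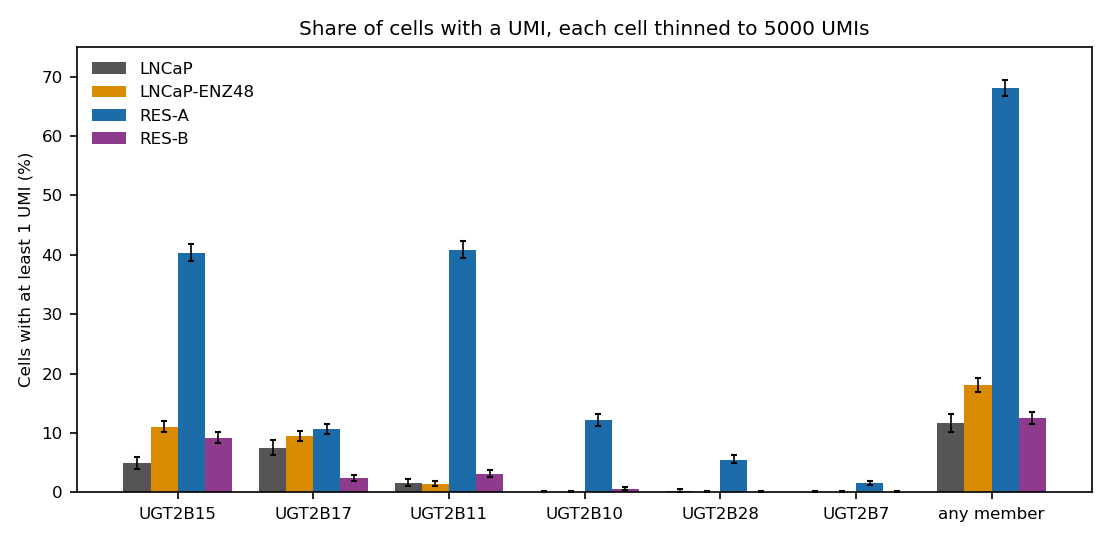
Percent of cells with at least 1 UMI of each UGT2B gene, and of any of the 6, after thinning each cell to 5000 UMIs; bars start at 0 and error bars are exact binomial 95% intervals. In RES-A 68.1% of cells hold a member, against 11.7% to 18.1% in the other libraries.

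RES-A cells often held several members. No member was detected in 31.9% of thinned RES-A cells, 1 in 36.1%, 2 in 22.8%, 3 in 7.49% and 4 in 1.51%, whereas 2 members were seen in 1.85% to 3.50% of cells of the other libraries. UGT2B11 and UGT2B15 were found together in 916 RES-A cells (20.05%, interval 18.9 to 21.2), above the 16.5% given by the product of their shares. UGT2B10 and UGT2B11 were together in 297 cells, against 227 from the product. Of 14 pairs with at least 5 cells from the product in RES-A, 10 had a whole interval above it. The ratio of observed to product ran from 0.94 to 2.35 over these pairs. In the other 3 libraries, where counts were lower, this ratio was higher. Only 1 pair in LNCaP, 3 in LNCaP-ENZ48 and 2 in RES-B had at least 5 expected cells. The ratio cannot exceed 1 over the larger share of the pair. It thus had less room in RES-A, and its size cannot be compared between libraries. UGT2B15 and UGT2B17 shared 26 LNCaP cells against 6.54 from the product (3.97 times), and 134 LNCaP-ENZ48 cells against 45.3 (2.96 times), and in RES-A the same pair shared 266 against 196 (1.36 times). The 2 pairs with at least 5 expected cells in RES-B were at 3.83 and 4.73 times the product. Doublets were not removed, and their part in this was not tested.

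The spread of UMIs among cells was also measured. For UGT2B15 the variance over the mean was 1.49 in solvent, 2.10 after short ENZ, 1.38 for RES-A and 1.55 for RES-B, where sampling from identical cells would give 1. UGT2B17 gave 1.62, 1.72, 1.16 and 1.29 in this order, and UGT2B11 gave 1.45, 1.30, 1.42 and 1.83. A LNCaP-ENZ48 cell held up to 9 UMIs of UGT2B15 at this depth, although 88.9% of these cells held none, against 84.6% for a Poisson spread of the same mean. UGT2B10 and UGT2B28 lay near 1 in each library where a value could be had, with 1.12 and 1.07 in RES-A.

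In solvent-treated LNCaP, the 3 better detected members were higher in cells that had little kallikrein RNA. KLK2, KLK3 and KLK4 encode prostate proteases whose genes are switched on by androgen, and thinned cells were binned by the sum of their UMIs. In LNCaP, UGT2B17 was at 47.9 CPM (interval 36.4 to 62.0) in 242 cells with 0 kallikrein UMIs, 20.7 CPM (16.0 to 26.4) in 627 cells with 1 to 3, and 12.5 CPM (9.46 to 16.2) in 913 cells with 4 or more. UGT2B15 was at 23.1, 14.99 and 6.57 CPM and UGT2B11 at 10.7, 3.51 and 2.19 CPM in these bins. From the lowest to the highest bin the folds were 3.84 (2.62 to 5.63) for UGT2B17, 3.52 (2.03 to 6.10) for UGT2B15 and 4.90 (1.99 to 12.5) for UGT2B11, the last on 13 and 10 UMIs. Cells of the bins shared 1 library and had similar medians of 26315.5 to 27549 UMIs and of 9.55% to 9.88% mitochondrial UMIs, but 51.2% of cells with no kallikrein were called G1, against 81.3% of those with 4 or more. Within G1 cells alone, UGT2B17 was 3.54-fold (2.16 to 5.72) and UGT2B15 2.99-fold (1.46 to 5.88) higher. UGT2B11 was 4.27-fold higher there, with a wide interval of 1.07 to 15.6 on 5 and 7 UMIs. With unthinned counts, and cells split at 200 and 800 kallikrein CPM, the folds were 3.37, 4.48 and 3.59 for UGT2B17, UGT2B15 and UGT2B11, and 4.2% of 7835 genes were at least 2-fold higher in the kallikrein-low cells.

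The folds were smaller in LNCaP-ENZ48, and in RES-B they rested on few UMIs in the highest bin. In LNCaP-ENZ48, UGT2B15 was at 38.5 CPM (interval 35.3 to 41.8), 23.7 (19.8 to 28.0) and 20.3 (13.5 to 29.3) from the lowest to the highest kallikrein bin, a fold of 1.90 (1.30 to 2.88). UGT2B17 went from 29.0 to 20.3 CPM, with a fold interval of 0.98 to 2.18, and UGT2B11 from 3.58 to 5.80 CPM, with an interval of 0.29 to 1.504. With unthinned counts the UGT2B15 fold was 1.31 (1.04 to 1.69), where 1.6% of 7459 genes were at least 2-fold higher. In RES-B the UGT2B15 level was 25.4 CPM in 2665 cells with 0 kallikrein UMIs. It was 25.6 CPM in 117 cells with 4 or more, on 15 UMIs. The interval of the fold was 0.59 to 1.79, against 2.03 to 6.10 in LNCaP. Both intervals leave out the spread among cells, where the variance over the mean was 1.49 in LNCaP and 1.55 in RES-B. They are thus too narrow to show that the gradients differ. For UGT2B17 and UGT2B11 in RES-B the folds were 1.65 (0.44 to 13.8) and 1.79 (0.60 to 8.78), on 2 and 3 UMIs in the highest bin, and these intervals hold the LNCaP folds. Split by unthinned CPM, RES-B gave 1.29 (0.80 to 2.22) on 17 UMIs in the high cells, where 2.56% of 8257 genes were at least 2-fold higher. In RES-A only 10 cells had a kallikrein UMI, and 99.8% of its cells fell in the lowest bin. The difference of the gradients between libraries has no replicate check.

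**Figure D4:**
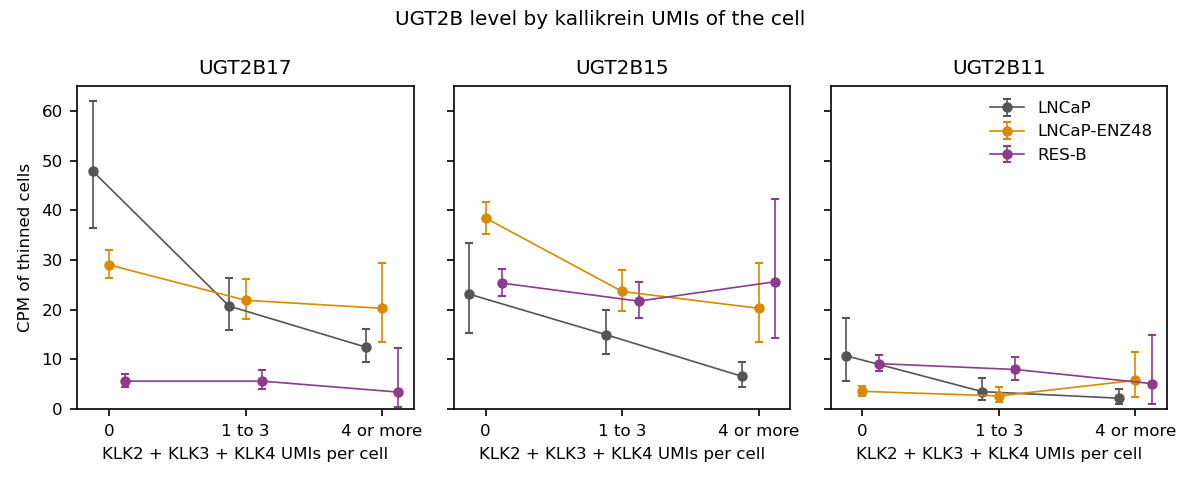
CPM of UGT2B17, UGT2B15 and UGT2B11 in thinned cells grouped by the summed UMIs of KLK2, KLK3 and KLK4, in 3 libraries; bars are exact Poisson 95% intervals. LNCaP falls from 47.9 to 12.5 CPM for UGT2B17 and from 23.1 to 6.57 CPM for UGT2B15, while RES-B lies between 21.7 and 25.6 CPM for UGT2B15.

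Levels were also compared between cell cycle phases. In RES-A, UGT2B11 was at 125 CPM in G1, 117 in S and 129 in G2/M cells, with overlapping intervals. UGT2B15 was at 125, 132 and 98.2 CPM (interval 89.1 to 108 in G2/M), lower in G2/M than in G1. UGT2B17 was at 24.9 (22.4 to 27.5), 27.9 and 18.2 CPM (14.4 to 22.7), and its G1 and G2/M intervals overlapped. The UGT2B15 level in RES-B was 25.9 in G1, 28.0 in S and 15.5 CPM (11.7 to 20.1) in G2/M. In LNCaP, UGT2B11 went the other way, at 2.50 CPM in G1 and 9.25 CPM (5.29 to 15.02) in G2/M, on 16 UMIs in each. UGT2B17 in RES-B was at 5.55 CPM in G1, 11.4 (6.98 to 17.7) in S and 2.77 (1.33 to 5.09) in G2/M, on 20 and 10 UMIs in the last 2 phases.

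Genes around the cluster were compared to see whether the whole region had shifted. The nearest expressed genes on chromosome 4 were taken in equal numbers from each side, 50 in all, reaching 19.8 Mb upstream and 13.1 Mb downstream. They had a median log2 ratio against LNCaP of -0.10 after short ENZ, 0.22 in RES-A and -0.21 for RES-B. All 8328 expressed genes had -0.08, 0.02 and 0.12. In RES-B against RES-A the neighbors were at -0.41 and all genes at 0.09. By median the neighbors thus lay below their RES-A level in RES-B, as each member did, but by far less, and of the 50 against LNCaP 2 were at least 2-fold higher and 1 lower in RES-A, and 0 higher and 2 lower in RES-B. The lowest was SLC4A4, a bicarbonate transporter named after its values were seen, at a log2 ratio of -4.08 in RES-A but -2.26 in RES-B. This is a difference of 1.82, opposite in sign to that of the members. It was an exception: in RES-B against RES-A, 1 of the 50 neighbors was at least 2-fold higher and 2 were lower. The nearest expressed genes on either side, YTHDC1 and UTP3, had log2 ratios of -0.46 and -0.85 there, in the direction of the members. Within the cluster, UGT2B4 had 6 and 1 UMIs in the parental libraries (solvent, then ENZ) and 24 and 14 in the resistant ones (RES-A, then RES-B), and UGT2A3 had at most 1 in any library. Of the genes beside it, TMPRSS11E was at 1.75, 0.99, 2.67 and 1.03 CPM in that order. The same order holds for the values of 4 libraries given from here on. ODAM, on the other side, was at 1.06, 1.40, 4.46 and 1.54 CPM and so was also highest in RES-A. AMTN, beyond it, was at 1.06, 0.23, 0.98 and 0.19 CPM.

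**Figure D5:**
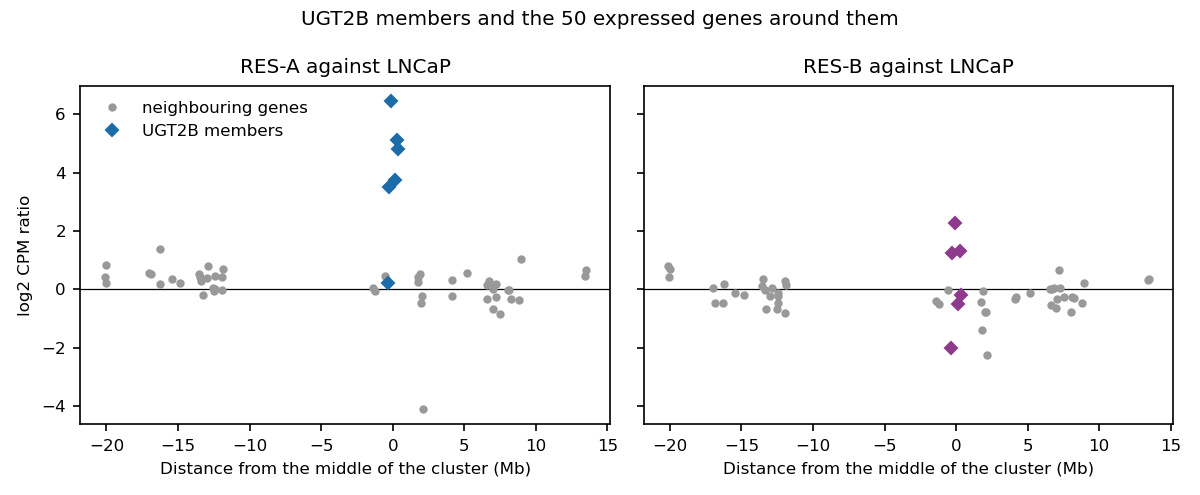
log2 CPM ratio against LNCaP of the 6 UGT2B members (diamonds) and 50 neighboring expressed genes (gray points) by distance from the middle of the cluster in Mb, for RES-A and RES-B. The neighbors are the nearest in equal numbers from each side. Neighbors have a median of 0.22 in RES-A but -0.21 in RES-B, and 5 members in RES-A lie between 3.49 and 6.44.

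Other branches of the family had low counts, but their 3' ends were not searched for repeats. A read that matches more than 1 gene is not counted, and UGT2A1 and UGT2A2 share an annotated 3' end at 69588417. For genes with a shared end the counts may fall short of the RNA. None of 16 other UDP-glucuronosyltransferase genes reached 10 CPM, and together they came to 0.78, 0.64, 2.77 and 3.14 CPM. The highest were UGT8, which makes galactosylceramide, with 93 UMIs (1.62 CPM) in RES-A, and UGT1A1, the bilirubin-conjugating enzyme, with 83 UMIs (1.58 CPM) in RES-B, near the 1.64 CPM of UGT2B10 there.

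Supply of the sugar donor and export of products were examined in 11 genes, of which 7 had 10 CPM. UGDH, which makes UDP-glucuronic acid, was at 64.3, 63.0, 45.4 and 70.4 CPM across the libraries, and UGP2, which makes its precursor, at 22.9, 25.8, 30.1 and 32.5 CPM. GUSB, the lysosomal enzyme that removes glucuronic acid, was at 41.3 to 48.7 CPM. None of the 7 was at least 2-fold higher against LNCaP in any library. The exporter ABCC4 was lower in both resistant lines, at 44.6, 26.1, 3.26 and 5.15 CPM, and ABCC1, at 23.3, 15.1, 11.7 and 11.4 CPM, was past 2-fold lower in RES-B alone. The median log2 ratio of the 7 genes was -0.09, -0.06 and 0.13, close to those of all genes.

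Of 11 transcriptional regulators described for UGT2B or related genes, 3 had 10 CPM and none was past 2-fold against LNCaP. FOXA1, a pioneer factor, was at 156, 146, 98.6 and 123 CPM. POU2F1 was at 13.6 to 19.7 CPM and NFE2L2 at 42.3 to 54.3 CPM. The liver factor HNF4A had at most 2 UMIs in any library, and the bile acid receptor NR1H4 had 0, 0, 8 and 5 UMIs.

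Genes of known androgen response did not all order the libraries as the UGT2B members did. Of 5 androgen-induced genes (KLK2, KLK3, KLK4, TMPRSS2 and FKBP5), 4 were at least 2-fold lower in each of the 3 ENZ-exposed libraries against LNCaP, with FKBP5 the exception at 0.54, 0.90 and 0.78 of its LNCaP level. KLK3 was at 718, 94.97, 0.035 and 30.5 CPM. Other genes lowered by androgen differed from the members. CAMK2N1, an inhibitor of a calcium-dependent kinase, was at 62.5, 221, 46.4 and 681 CPM and so was highest in RES-B, and OPRK1, an opioid receptor, was at 1.75, 4.60, 1.22 and 0.25 CPM. MET was nearest to the members, with 3, 6, 154 and 23 UMIs.

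Liver is a site of high UGT2B expression, and hepatocyte markers were counted beside these results. ALB, APOA1, APOC3, TTR and SERPINA1 summed to 5.08, 5.19, 15.7 and 10.3 CPM, with 1 of the 5 at 0 UMIs in each library. ALB had 8, 40, 147 and 0 UMIs, SERPINA1 had 8, 3, 62 and 4, and APOA1 was at 2.67, 3.11, 7.27 and 3.58 CPM. TTR was highest in RES-B instead, at 2.09, 1.38, 4.83 and 6.64 CPM. The highest share of thinned RES-A cells with any of these markers was 4.14% (APOA1), against 40.9% with UGT2B11. The part of hepatocyte gene expression in the RES-A levels was not tested.

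The genes whose levels over the 4 libraries were most like each member were found by the distance between log2 levels centered per gene, over 8328 genes. UGT2B10 and UGT2B11 were the second nearest of each other (distance 0.23), behind PREX1, an activator of Rac, which had no UMI in either parental library and was at 22.6 (RES-A) and 1.20 CPM (RES-B). UGT2B15 was nearest to the calcium pump gene ATP2B1 (0.67), at 40.4, 66.9, 265 and 78.2 CPM, and to GSTA1 (0.68), a glutathione transferase, at 16.6, 26.0, 154 and 26.8 CPM. UGT2B17 was nearest to NDUFB4 (0.27), a respiratory chain subunit, at 732, 1068, 1009 and 195 CPM, UGT2B28 to PKIA (0.22) and UGT2B7 to FABP6 (0.23). With 4 points per gene these are descriptions of order. They do not give the size of folds for genes near or under 1 CPM, because 1 was added to each CPM before the log.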

How the data were processed

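The 4 single-cell RNA sequencing libraries (1 per group) were analyzed from the deposited UMI counts per gene and cell barcode, which the authors made from 3' droplet libraries with Cell Ranger 3.0.2 and GRCh38 (per the submitters' processing notes, which also name hg38). Groups were taken from the sample titles. Cells were kept within the limits that the study set per library. LNCaP cells had 3000 to 7000 genes, 16000 to 50000 UMIs and under 15% mitochondrial UMIs. Limits for the rest were 1500 to 5000 genes, 5000 to 25000 UMIs and under 15% (LNCaP-ENZ48), 17% (RES-A) or 20% (RES-B) mitochondrial UMIs. This left 1782 of 2358, 4315 of 4812, 4569 of 5156 and 4061 of 4907 barcodes.

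Counts were summed per library and given as CPM with exact Poisson 95% intervals, ratios with Clopper-Pearson intervals conditional on the summed count and shares with exact binomial intervals (scipy 1.17.1). No test was run, because cells are not replicates, and the study's test over cells was left out. A count of 0 was read against a floor of 3 UMIs per library or 3 cells. Cells were thinned once, with a fixed seed, and phases were called with the lists of Seurat 5.3.0. The calculation of ratios and intervals was checked on simulated Poisson counts. These had no spread among cells or libraries, so the check does not cover such spread in the real data. Likeness was the distance between centered log2(CPM + 1) levels, over genes with 10 CPM in at least 1 library. Coordinates and transcripts came from GENCODE 44 on GRCh38, matched by gene ID (33113 of 33538 found). Scaling alternatives used edgeR 4.0.16 (TMM) and DESeq2 1.42.0. Windows were searched with bwa 0.7.19. The 6 members, the gene lists and the comparisons were chosen with earlier results of these data known, and some listed genes are not reported here. Genes named besides the members are those of the lists and, per member, the nearest in likeness, and the pairs described for co-detection were picked after their values were seen.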

Additional observations from a re-analysis of the deposited data

Results flagged for a closer look

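UGT2B17 was singled out because the resistant lines lay on opposite sides of parental LNCaP, with intervals that did not reach 0. Its log2 ratio against LNCaP was 0.22 in RES-A but -2.00 in RES-B. The difference was not tested, since each line is 1 library, and both ratios use the same LNCaP library. In the direct comparison of the lines UGT2B17 was 4.65-fold lower in RES-B.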

How the results depend on the processing

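Each group was 1 library, so no replicate could be left out. No paired analysis was possible because every group has 1 sample and no test was run. Of 36 log2 ratios of members, no ratio whose interval left out 0 changed sign under 6 alternatives, and all 36 kept within their intervals when the 5% of cells with the most UMIs were left out. In cells called G1 alone, 10 of the 18 ratios against LNCaP left their intervals: UGT2B15 was at 1.79 after short ENZ and at 3.74 (RES-A) and 1.49 (RES-B) in the resistant lines, UGT2B10 at 7.70 and 3.33 and UGT2B11 at 5.56 and 1.89 in the same order, UGT2B17 at 0.34 in RES-A and -1.79 in RES-B, and UGT2B28 at 0.85 in RES-B. With 1 set of limits on cells for all libraries, UGT2B7 in RES-B was at 0.90, on few UMIs. The cause was not tested.

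Shares of cells depend on depth by construction. Any member was found in 32.0% of solvent-treated cells, 32.2% after short ENZ, 86.0% (RES-A) and 21.6% (RES-B) without thinning, and in 6.79%, 9.41%, 42.4% and 6.45% at 2000 UMIs per cell. The level by kallikrein stayed within its intervals under the planned unthinned alternative and the 2 added after the data were seen, where a ratio could be had. When the 5% of cells with the most UMIs were left out, 8 ratios remained, and UGT2B17 in RES-B gave none.

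Counts of genes past 2-fold move with the minimum level because fewer or more genes are counted. At 50 CPM and at 1 CPM they were 8 and 81 higher and 23 and 168 lower in LNCaP-ENZ48 against LNCaP, 117 and 1255 higher and 127 and 984 lower in RES-A against LNCaP, and 171 and 1190 higher and 92 and 776 lower in RES-B against LNCaP. Against LNCaP-ENZ48 they were 115 and 1337 higher and 99 and 820 lower in RES-A, and 175 and 1330 higher and 72 and 666 lower in RES-B, where TMM gave 308 and DESeq2 scaling 309 higher. In RES-B against RES-A they were 115 and 778 higher and 56 and 651 lower. At 50 CPM the members past 2-fold were 0 higher in LNCaP-ENZ48, 2 higher in RES-A against either parental library, 0 higher and 0 lower in RES-B against LNCaP, 0 lower in RES-B against LNCaP-ENZ48 and 2 lower in RES-B against RES-A. At 1 CPM they were 3 higher in RES-B against LNCaP and 2 higher against LNCaP-ENZ48. Members under about 1 CPM rest on 9 to 23 UMIs, where differences under 2-fold were not detectable.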
